A study of Mus musculus with 12 samples.

Results

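The miR-17-92 and miR-106b-25 clusters are a pair of related polycistronic miR genes, and their mature products were followed here in small RNA libraries of mouse fetal liver. The 10 members were chosen by name and not by a rule on their values, although earlier results of these data were known by then. For the miR-17-92 cluster they were mmu-miR-17-5p, mmu-miR-17-3p, mmu-miR-18a-5p, mmu-miR-19a-3p, mmu-miR-20a-5p, mmu-miR-19b-3p and mmu-miR-92a-3p. For the miR-106b-25 cluster they were mmu-miR-106b-5p, mmu-miR-93-5p and mmu-miR-25-3p. All are written below without the prefix for mouse. They are 10 of the 1927 mature miRs in the count table and 10 of the 682 with a read in any library. Each member had reads in all 12 libraries, each had an entry of its own that no other miR shared, and all 10 passed the filter on low counts that left 388 miRs for testing. Together they took between 1.47% and 1.73% of the reads counted on miRs in a library.

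Livers were taken at E18.5 (E, embryonic day), shortly before birth, from female fetuses, 5 wild-type (WT) and 7 Mir483Pat-KO, with 1 library per fetus. Mir483Pat-KO fetuses inherited from the father a deletion of Mir483, the miR gene within the imprinted Igf2 gene, and the WT fetuses were littermates without it. The deletion is constitutive, since it was made by Cre in C57BL/6N embryonic stem cells before any mouse was bred, and the line was founded from a pair of independent clones and kept by crosses to C57BL/6J, so that the clone behind each fetus is not given in the sources used here. Neither cluster studied here lies on the chromosome of Mir483, and neither was targeted. The deleted miR-483-3p was at 1071 ± 103 CPM (counts scaled by TMM to a common library total, SD, n = 5) in WT and 15.2 ± 10.8 CPM (n = 7) in Mir483Pat-KO, and the highest Mir483Pat-KO library (25 CPM) was far below the lowest WT library (985 CPM), so the libraries fit their genotype labels. Total counts lay within 711810 and 1211160 for WT and within 658665 and 921068 for Mir483Pat-KO. WT libraries carry index numbers 37 to 41 and Mir483Pat-KO libraries 42 to 48, so index and genotype cannot be told apart by design. Animal numbers fall into a range under 450 (4 WT and 4 Mir483Pat-KO) and a range over 450 (1 WT and 3 Mir483Pat-KO). The hepatocyte markers miR-122-5p, miR-192-5p and miR-194-5p summed to between 165442 and 214535 CPM in every library. Because whole livers were sequenced, fewer cells of a type and less RNA per cell cannot be told apart.

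A miR gene is transcribed into a long primary RNA from which hairpins are cut in the nucleus and trimmed in the cytoplasm to a short duplex, and 1 strand of the duplex, the guide, is kept in an Argonaute protein while the other is mostly degraded. The guide finds messenger RNAs mainly through its seed, bases 2 to 8, so that miRs with the same seed are grouped as a family with overlapping targets. The miR-17-92 cluster, also called oncomiR-1, is switched on by MYC and E2F factors in dividing cells, represses among others the pro-apoptotic gene Bcl2l11, and is needed for lung, heart and B cell development. The miR-106b-25 cluster is a paralogue made from an intron of Mcm7, a gene for a subunit of the DNA replication helicase. Fetal liver near term holds growing hepatocytes together with blood-forming cells, chiefly of the erythroid lineage.

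In the mouse genome (GRCm38, GENCODE M21) the 6 hairpins of the miR-17-92 cluster lie within 836 bases, chr14:115043671-115044506 on the plus strand, in exon 2 of the non-coding host gene Mir17hg (transcript Mir17hg-201, 2 exons). Their order along the transcript is Mir17, Mir18, Mir19a, Mir20a, Mir19b-1 and Mir92-1. The 3 hairpins of the miR-106b-25 cluster lie within 498 bases, chr5:138165321-138165818 on the minus strand, in intron 13 of Mcm7 (transcript Mcm7-201, 15 exons), and are transcribed in the order Mir106b, Mir93 and Mir25. A further paralogue, the miR-106a-363 cluster, lies on the minus strand of chromosome X. It encodes copies of miR-19b-3p (Mir19b-2) and miR-92a-3p (Mir92-2) that are identical in sequence to those of chromosome 14, so reads of these members cannot be assigned to a locus.

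The mature sequences are shown grouped by seed, since the seed sets which members could act alike. They are RefSeq's (GRCm38.p6), and capitals mark the seed. All 10 members were found there.
miR-17-5p: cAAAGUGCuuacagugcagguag
miR-20a-5p: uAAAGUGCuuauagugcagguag
miR-93-5p: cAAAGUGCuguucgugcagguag
miR-106b-5p: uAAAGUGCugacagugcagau
miR-18a-5p: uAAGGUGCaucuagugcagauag
miR-19a-3p: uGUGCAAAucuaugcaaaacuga
miR-19b-3p: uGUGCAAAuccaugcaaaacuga
miR-92a-3p: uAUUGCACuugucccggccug
miR-25-3p: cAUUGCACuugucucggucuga
miR-17-3p: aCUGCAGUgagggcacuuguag

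The miR-17 family has members in both clusters, miR-17-5p and miR-20a-5p in the miR-17-92 cluster and miR-93-5p and miR-106b-5p in the miR-106b-25 cluster. miR-18a-5p carries a closely similar seed but is usually kept apart as a family of its own. The miR-25/92 family also spans both clusters, with miR-92a-3p in one and miR-25-3p in the other, whereas the miR-19 family is found in the miR-17-92 cluster and not in the miR-106b-25 cluster. Several relatives differ at few bases outside the seed. Counting from 1 at the 5′ end and with the first-named miR's base first, miR-17-5p and miR-20a-5p differ by C1U and C12U, miR-19a-3p and miR-19b-3p by U11C alone, and miR-17-5p and its chromosome X paralogue miR-106a-5p by U10A alone. How the authors' counting shared reads between such near-identical miRs could not be checked, and the level of each of these is uncertain to that extent.

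The members spanned a wide range of read levels, and their order was the same in both genotypes. miR-92a-3p, a member of the miR-25/92 family abundant in blood-forming and endothelial cells, was highest at 6798 ± 520 CPM (SD, n = 12), which gave it rank 29 among the 388 miRs tested. miR-93-5p followed at 3615 ± 298 CPM and miR-25-3p at 2232 ± 101 CPM. The ranges of these 3 over the 12 libraries did not overlap one another or that of any other member. miR-17-5p stood at 1181 ± 68.8 CPM and miR-20a-5p at 972 ± 84.6 CPM, with overlapping ranges. miR-17-5p was nevertheless above miR-20a-5p in each of the 12 libraries, by 1.22-fold on average.

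The lower members kept their order nearly as well. miR-106b-5p averaged 548 ± 37.4 CPM, miR-19b-3p 440 ± 52.6 CPM, miR-19a-3p 350 ± 33.5 CPM and miR-18a-5p 259 ± 27.2 CPM. The order of all 10 members was the same in 11 of the 12 libraries, and the exception was WT replicate 2, in which miR-19b-3p (561 CPM) exceeded miR-106b-5p (541 CPM). miR-19b-3p and miR-19a-3p overlapped in range, but miR-19b-3p was higher in every library, by 1.26-fold. miR-17-3p, the strand of the miR-17 hairpin that is mostly discarded, was the lowest member at 20.02 ± 4.96 CPM, with 7 to 23 reads per library. These levels count reads, and since ligation and amplification favour some sequences over others they do not give the order of molecules in the cell.

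The spread between libraries was small for most members. The coefficient of variation over the 12 libraries was 4.55% for miR-25-3p, 5.83% for miR-17-5p and 7.65% for miR-92a-3p, and it reached 11.96% for miR-19b-3p. Counting error alone would give 2.34%, 3.21%, 1.34% and 5.30% for the same miRs. For miR-17-3p the spread of 24.8% was no larger than the 25.6% that its few reads would give, so differences of miR-17-3p between libraries were not detectable at this depth.

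**Figure D1:**
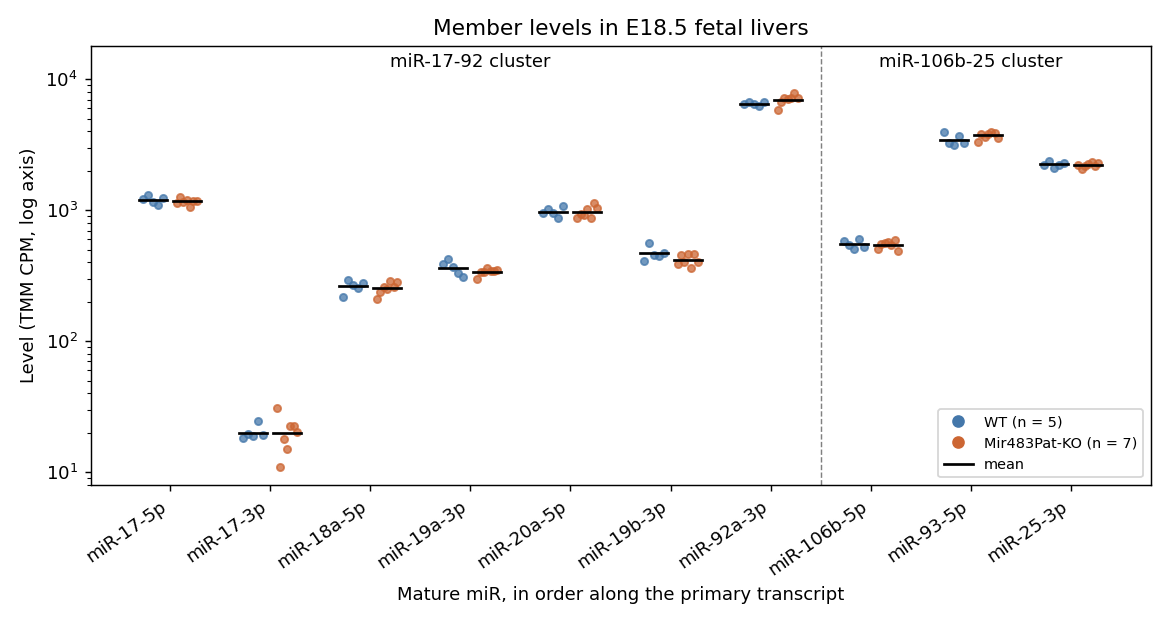
Level of each member (TMM CPM, log axis) in each of the 12 E18.5 liver libraries, in the order of the hairpins along each transcript; points are fetuses and bars are genotype means. miR-92a-3p averages 6798 CPM and miR-17-3p 20.02 CPM, and for every member the points of WT and Mir483Pat-KO overlap.

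The members of a cluster gave very unequal numbers of reads. Within the miR-17-92 cluster miR-92a-3p, encoded in the last hairpin, made up 67.8% ± 1.72 of the member reads (SD, n = 12). Here and below, reads of miR-92a-3p and miR-19b-3p that may come from chromosome X are counted in this cluster. miR-17-5p, from the first hairpin, made up 11.8% ± 0.827 and miR-20a-5p, from the fourth, 9.70% ± 0.554. The miR-19 pair contributed 4.40% ± 0.508 (miR-19b-3p) and 3.50% ± 0.332 (miR-19a-3p), and miR-18a-5p 2.58% ± 0.229. The level did not run up or down steadily along the transcript. The lowest guide, miR-18a-5p, comes from the hairpin next to the first, with miR-17-5p before it and miR-20a-5p after it both higher. miR-92a-3p gave 26.4 times the reads of miR-18a-5p and 5.75 times those of miR-17-5p.

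Within the miR-106b-25 cluster the middle hairpin led. miR-93-5p made up 56.5% ± 2.08 of the member reads, miR-25-3p 34.97% ± 2.13 and miR-106b-5p 8.57% ± 0.410 (SD, n = 12). miR-93-5p gave 6.59 times the reads of miR-106b-5p and 1.62 times those of miR-25-3p. Adding the reads of the opposite strands to their hairpins raised the share of the miR-106b hairpin to 13.2% and lowered that of the miR-93 hairpin to 53.6%, without changing the order.

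**Figure D2:**
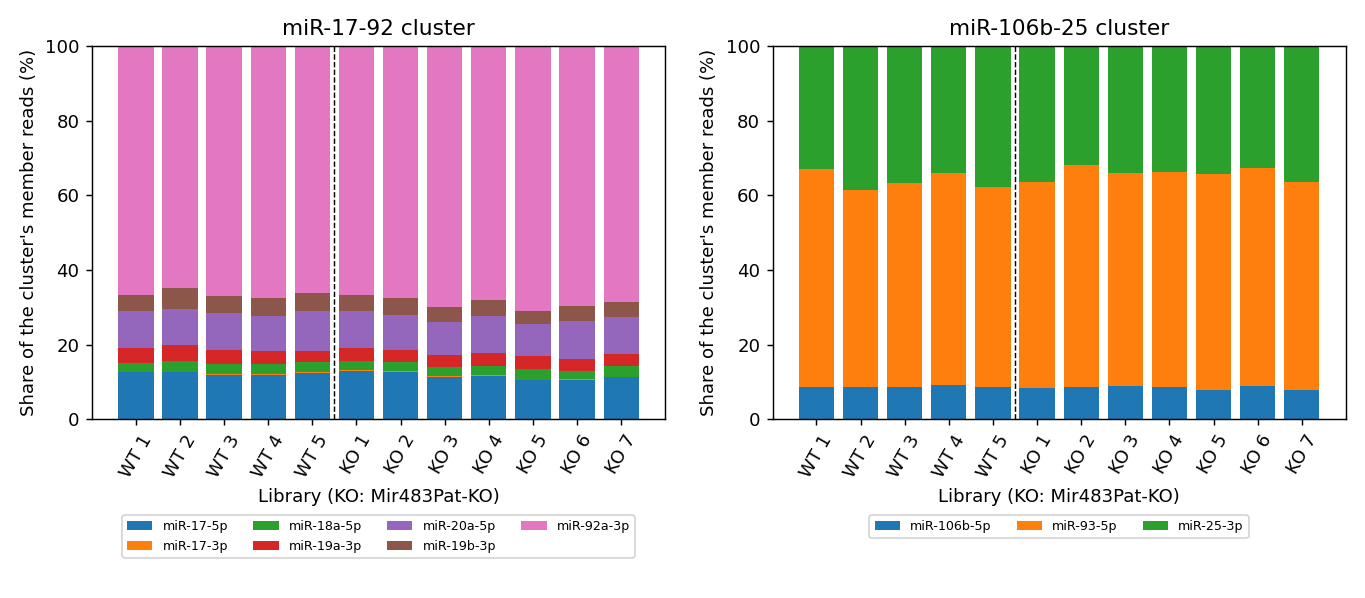
Share of each member in the member reads of its cluster (%), 1 bar per library, with WT left and Mir483Pat-KO right of the dashed line. miR-92a-3p takes 65.0% to 71.0% of the miR-17-92 reads and miR-93-5p takes 52.7% to 59.3% of the miR-106b-25 reads. Reads of miR-92a-3p and miR-19b-3p from either locus are counted as miR-17-92.

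These proportions were steady from fetus to fetus. Over the 36 pairs of members that leave out miR-17-3p, the SD of the log2 ratio of the pair's reads across the 12 libraries ranged from 0.087 for miR-106b-5p against miR-93-5p to 0.24 for miR-19b-3p against miR-93-5p. With counting error included, pairs within the miR-17-92 cluster were no tighter at the median than pairs between the clusters. Counting error was larger for the pairs within the miR-17-92 cluster. Some of these pairs hold miR-19b-3p or miR-92a-3p, whose reads may come from a second locus. The median SD was 0.16 over the 15 pairs within the miR-17-92 cluster, 0.12 over the 3 pairs within the miR-106b-25 cluster and 0.16 over the 18 pairs between them. Counting error would give median SDs of 0.097, 0.073 and 0.083, and the pairs share libraries and members, so they are not independent.

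Summed over its members, the miR-17-92 cluster gave more reads than the miR-106b-25 cluster in every library. The ratio of reads was 1.43, 1.66, 1.70, 1.42 and 1.65 in WT replicates 1 to 5. In Mir483Pat-KO the lowest ratio was 1.46, the median 1.55 and the highest 1.68. The WT values fell into a low pair and a high trio, and all 7 Mir483Pat-KO values lay between the lowest and the highest WT value. The mean ratio was 1.57 ± 0.137 (SD, n = 5) in WT and 1.57 ± 0.084 (n = 7) in Mir483Pat-KO. Within the lower animal-number range the means were 1.55 ± 0.149 (n = 4) and 1.54 ± 0.065 (n = 4), and within the upper range the single WT library was at 1.65 and Mir483Pat-KO averaged 1.60 ± 0.110 (n = 3). This ratio needs no scaling between libraries, but it counts reads of miR-92a-3p and miR-19b-3p from either locus as miR-17-92.

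The excess rested on miR-92a-3p. Without miR-92a-3p and its family relative miR-25-3p, the mean log2 ratio of the 2 clusters turned from 0.65 to -0.37, that is, the rest of the miR-17-92 cluster gave fewer reads than miR-93-5p and miR-106b-5p together. In this reduced ratio Mir483Pat-KO lay 0.14 below WT on the log2 scale. No test was run on a sum over members. The summed level was 9803 ± 397 CPM in WT and 10174 ± 724 CPM in Mir483Pat-KO for the miR-17-92 cluster, and 6263 ± 399 CPM and 6489 ± 275 CPM for the miR-106b-25 cluster.

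Regrouped by seed, the clusters contributed unequally. The miR-17 family reached 6347 ± 336 CPM (SD, n = 12), and the miR-106b-25 cluster supplied 65.5% ± 2.44 of its reads against 34.0% ± 2.45 from the miR-17-92 cluster. miR-93-5p alone supplied 56.9% ± 2.38, more than miR-17-5p (18.7% ± 1.37) and miR-20a-5p (15.3% ± 1.34) together, although the family is named after miR-17. In the miR-25/92 family, at 9071 ± 537 CPM, the balance was the opposite, with 74.9% ± 1.61 from miR-92a-3p and 24.7% ± 1.53 from miR-25-3p. Other miRs of that seed were minor, since miR-32-5p, the most abundant of them, supplied 0.383% ± 0.115.

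The remaining families consisted almost wholly of sequences that the miR-17-92 cluster encodes, although reads of miR-19b-3p may also come from its chromosome X copy. The miR-19 family reached 790 ± 75.4 CPM, with 55.6% ± 2.76 from miR-19b-3p and 44.4% ± 2.76 from miR-19a-3p. In the miR-18 family, at 267 ± 25.9 CPM, miR-18a-5p supplied 96.8% ± 2.06. A share of reads is not a share of repression, which also depends on the targets and on pairing outside the seed.

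**Figure D3:**
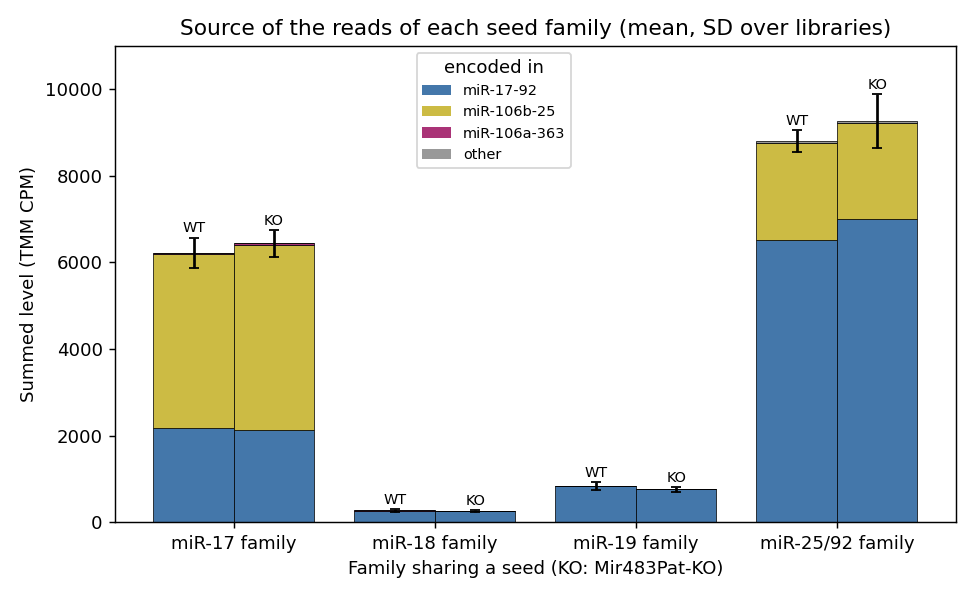
Summed level (TMM CPM, linear axis from 0) of the 4 seed families, with the reads split by the cluster that encodes the miR; bars are means of 5 WT or 7 Mir483Pat-KO (KO) libraries and error bars the SD of the sum. The miR-106b-25 cluster supplies 65.5% of the miR-17 family and the miR-17-92 cluster 74.9% of the miR-25/92 family, and reads of miR-92a-3p and miR-19b-3p from either locus are counted as miR-17-92.

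The chromosome X paralogues were detected at a far lower level. Of the 10 arms of the miR-106a-363 cluster that can be told apart from the members, 5 were listed at 0 in every library. miR-106a-5p averaged 15.3 ± 6.89 CPM and miR-20b-5p 15.7 ± 3.97 CPM. The reads of miR-17-5p outnumbered those of miR-106a-5p by 74.8 times over all libraries, and by 36.3 to 148 times in single libraries. For miR-20a-5p against miR-20b-5p the excess was 61.5 times, and for miR-18a-5p against miR-18b-5p it was 29.9 times.

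The strand opposite to a shared member can itself be assigned to a locus, because the opposite strands of the copies differ in sequence. It does not place the reads of the shared member, since the hairpins may differ in how strongly they favour a strand. miR-92a-1-5p, from the chromosome 14 hairpin, was at 427 ± 43.7 CPM (n = 12), while miR-92a-2-5p, from chromosome X, was listed at 0 in all 12 libraries. miR-19b-2-5p was also listed at 0 throughout, and miR-19b-1-5p had reads in 1 library only (15 reads, Mir483Pat-KO replicate 7). A listed 0 was not read as absence, because the table holds no count of 1 and some miRs jump between 0 and clear levels. miR-20a-3p, for example, had 11 to 12 reads in 3 WT libraries, 4 reads in 1 Mir483Pat-KO library and 0 in the other 8 libraries.

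How strongly a hairpin favoured a strand differed widely among the members. Of all reads of the hairpin, the minor strand took 38.3% ± 3.55 for miR-106b and 17.5% ± 2.21 for miR-18a (SD, n = 12). For miR-17 it took 1.68% ± 0.472, and for miR-93 and miR-25 it took 0.311% ± 0.155 and 0.509% ± 0.206. miR-92a-1-5p, from chromosome 14, took 5.92% ± 0.536 of its own reads and all miR-92a-3p reads together. Since miR-92a-3p reads may also come from chromosome X, this is not the strand preference of the chromosome 14 hairpin alone. The minor strand of the miR-106b hairpin, miR-106b-3p, thus had more reads, at 341 ± 43.7 CPM, than miR-18a-5p, a guide of the other cluster, and among the 8 opposite strands only miR-92a-1-5p was higher. Its sequence shares no seed with a member.
miR-106b-3p: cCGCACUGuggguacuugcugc

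The comparison of genotypes asked whether loss of miR-483 went with a change in either cluster. None of the 10 members passed an adjusted p under 0.05 in edgeR's quasi-likelihood test with Benjamini-Hochberg adjustment over the 388 miRs tested, of which 2.06% (8 miRs) passed. No member had an unadjusted p under 0.05 either, against 17.5% of the miRs tested. DESeq2, which called 12.1% of the miRs it gave an adjusted p, and limma-voom, which called 2.58%, also called 0 members. miR-17-3p was among the miRs to which DESeq2 gave no adjusted p. Adjusted p-values of the members ranged from 0.436 to 0.997. The log2 fold changes, Mir483Pat-KO minus WT, lay between -0.16 and 0.11, with 7 below and 3 above 0, the side on which 50.3% of all miRs tested lay (miR-17-3p and miR-20a-5p, both close to 0, changed sign under another scaling) and a median of -0.017, while the median over all miRs tested was 0.0028. The median size of the change, irrespective of sign, was 0.039 for the members and 0.14 for all miRs tested.

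The intervals bound how large a difference could have been missed. For the 9 members other than miR-17-3p, the 95% intervals of the log2 fold change all lay within -0.35 and 0.25. These bounds hold for that fit only, since miR-18a-5p was at -0.38 (SE 0.16) with the library index number as a covariate. For miR-17-3p the interval ran from -0.53 to 0.54. No member had groups whose ranges did not overlap, which 2.84% of the miRs tested had.

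The member with the lowest p was miR-19b-3p, a member of the miR-19 family, which is best known for its oncogenic activity in lymphoma models. It was at 407, 561, 454, 444 and 473 CPM in WT replicates 1 to 5. In Mir483Pat-KO its lowest level was 359, its median 404 and its highest 466.3 CPM. The groups overlapped, with 4 of 7 Mir483Pat-KO libraries below the lowest WT library and WT replicate 2 above all others. The log2 fold change was -0.16 (SE 0.090, 95% interval -0.35 to 0.035, edgeR adjusted p = 0.436). Leaving out any single library gave values from -0.20 to -0.11, and it was called in none of these 12 fits. Its unadjusted p by edgeR was under 0.05 without WT replicate 1 and without Mir483Pat-KO replicate 2. Its family relative miR-19a-3p was at 386, 424, 369, 333 and 309 CPM in WT and at 299, 344 and 362 CPM (lowest, median and highest) in Mir483Pat-KO, with a log2 fold change of -0.10 (SE 0.081, adjusted p = 0.569 by edgeR).

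miR-92a-3p and miR-93-5p lay on the other side of 0. miR-92a-3p was at 6446, 6699, 6522, 6252 and 6657 CPM in WT replicates 1 to 5, and at 5870, 7163 and 7821 CPM (lowest, median and highest) in Mir483Pat-KO. WT libraries were close together, while 5 of 7 Mir483Pat-KO libraries were above the highest of them and 1 was below the lowest. The log2 fold change was 0.10 (SE 0.063, 95% interval -0.031 to 0.24, edgeR adjusted p = 0.453). miR-93-5p, whose family represses the cell cycle inhibitor gene Cdkn1a, was at 3941, 3279, 3130, 3704 and 3251 CPM in WT and at 3347, 3802 and 3983 CPM in Mir483Pat-KO. Only 1 Mir483Pat-KO library exceeded the highest WT library, and the log2 fold change was 0.11 (SE 0.069, adjusted p = 0.480 by edgeR).

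The other 6 members had log2 fold changes between -0.040 and 0.0046. For miR-17-5p, WT replicates 1 to 5 were at 1214, 1299, 1151, 1095 and 1241 CPM and Mir483Pat-KO ran from 1059 through a median of 1171 to 1264 CPM (log2 fold change -0.040, SE 0.063). miR-20a-5p was at 957, 1015, 952, 868 and 1068 CPM in WT and ran from 871 through 934 to 1134 CPM in Mir483Pat-KO (-0.00092, SE 0.078). miR-25-3p was at 2230, 2398, 2097, 2229 and 2304 CPM in WT and ran from 2048 through 2204 to 2356 CPM (-0.022, SE 0.056). In each of these 3 miRs 6 of 7 Mir483Pat-KO libraries lay within the WT range. For miR-106b-5p it was 5 of 7, with WT at 581, 541, 502, 606 and 524 CPM and Mir483Pat-KO from 492 through 556 to 592 CPM (-0.012, SE 0.070). miR-18a-5p, the only guide of the miR-18 family among the members, averaged 263 ± 29.6 CPM in WT and 256 ± 27.2 CPM in Mir483Pat-KO (-0.039, SE 0.094), and miR-17-3p averaged 20.03 ± 2.61 and 20.01 ± 6.38 CPM (0.0046, SE 0.25).

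**Figure D4:**
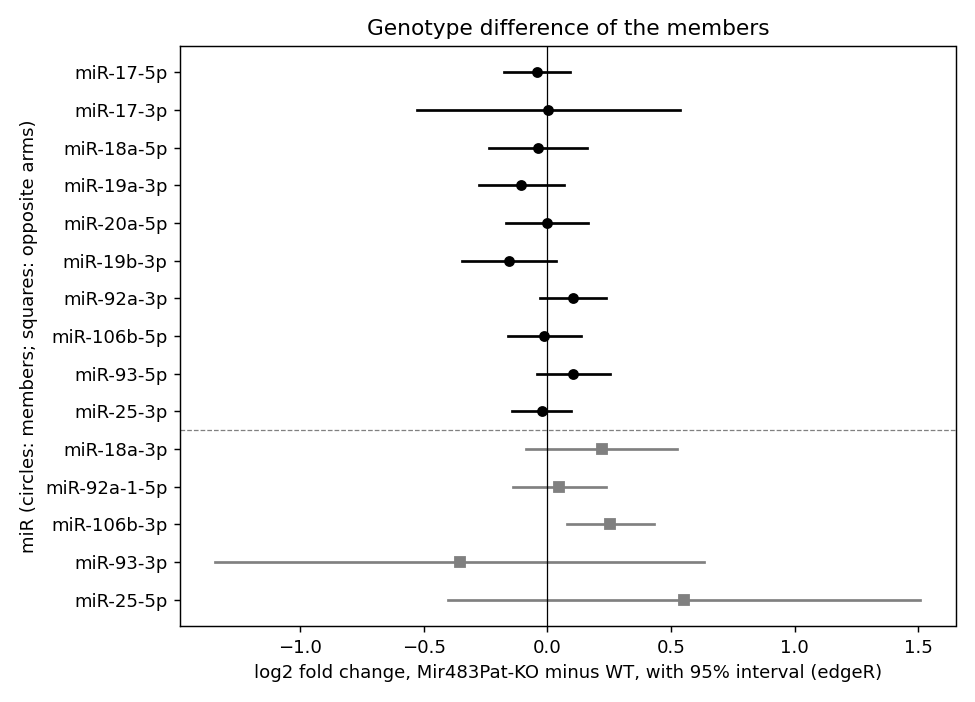
log2 fold change, Mir483Pat-KO minus WT, with its 95% interval (edgeR), for the 10 members (circles) and the 5 opposite strands that were tested (squares). All member intervals include 0, and among the opposite strands that of miR-106b-3p, from 0.078 to 0.43, does not.

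Shares within a cluster remove differences of scale between libraries. miR-92a-3p took 66.8%, 65.0%, 67.0%, 67.4% and 66.3% of the miR-17-92 reads in WT replicates 1 to 5. In Mir483Pat-KO its share was 66.6% at the lowest, 68.7% at the median and 71.0% at the highest, and 5 of 7 libraries were above the highest WT library. The means were 66.5% ± 0.957 and 68.8% ± 1.54, a difference of 2.26 percentage points, described here without a test. Shares in a cluster sum to a fixed total, so a higher share of miR-92a-3p lowers the rest. The mean share of every other miR-17-92 member was lower in Mir483Pat-KO. Relative to its size that of miR-19b-3p differed most, with 4.76% ± 0.439 in WT and 4.14% ± 0.389 in Mir483Pat-KO. Beside this, the erythroid markers miR-451a, miR-144-3p, miR-144-5p and miR-486a-5p/miR-486b-5p (a single entry for both miRs) summed to 27407 ± 3609 CPM in WT (range 23848 to 31974) and 31926 ± 3734 CPM in Mir483Pat-KO (range 25913 to 37810), and the 5 white blood cell markers to 12944 ± 1371 CPM (range 11343 to 14595) and 14185 ± 639 CPM (range 13119 to 14813). Of the listed markers, 4 of 4 erythroid entries and 3 of 3 white blood cell miRs tested had a log2 fold change above 0. That side held 50.3% of all miRs tested. The entries are not independent, since miR-144-3p and miR-144-5p are strands of 1 hairpin, as are the white blood cell miRs miR-142a-3p and miR-142a-5p. Of either list 0 were called by edgeR, against 2.06% of all miRs tested. Unadjusted p by edgeR was under 0.05 for 2 of the markers, against 17.5% of all miRs tested. These were miR-486a-5p/miR-486b-5p (log2 fold change 0.25, SE 0.095, edgeR adjusted p = 0.185) and miR-144-3p (0.34, SE 0.14, adjusted p = 0.191). The white blood cell miRs left out of testing went the other way on average. miR-150-5p was at 11.5 CPM in WT and 8.14 CPM in Mir483Pat-KO, and miR-155-5p at 100 and 38.5 CPM. No defining erythroid marker was at 0, miR-150-5p was listed at 0 in 1 library and miR-155-5p in 9. The part of these markers in the difference was not tested.

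In the miR-106b-25 cluster, the share of miR-93-5p was 55.2% ± 2.32 in WT and 57.4% ± 1.40 in Mir483Pat-KO, that of miR-25-3p 36.04% ± 2.40 and 34.2% ± 1.68, and that of miR-106b-5p 8.79% ± 0.277 and 8.42% ± 0.436. The ranges overlapped for all 3. By seed family, the miR-106b-25 cluster supplied 64.4% ± 3.05 of the miR-17 family in WT and 66.3% ± 1.72 in Mir483Pat-KO, and miR-92a-3p supplied 74.0% ± 0.810 and 75.5% ± 1.77 of the miR-25/92 family.

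Of the 8 opposite strands, 5 were tested and 0 were called by edgeR, against 2.06% of all miRs tested. Of the 5, 1 had an unadjusted p under 0.05 by edgeR, against 17.5% of all miRs tested. That strand was miR-106b-3p. It was at 313, 282, 283, 308 and 346 CPM in WT replicates 1 to 5 and, in Mir483Pat-KO, at 331 CPM at the lowest, 359 at the median and 417 at the highest. All 7 Mir483Pat-KO libraries were above WT replicates 1 to 4, and 4 of 7 were above WT replicate 5 as well. The log2 fold change was 0.25 (SE 0.083, 95% interval 0.078 to 0.43, edgeR adjusted p = 0.117). Its partner from the same hairpin, miR-106b-5p, had a log2 fold change of -0.012. Of the paralogues and same-seed relatives, miR-106a-5p (log2 fold change -0.37, SE 0.35), miR-20b-5p (-0.24, SE 0.28) and miR-32-5p (0.092, SE 0.25) passed the filter, and 0 of these 3 were called or had an unadjusted p under 0.05 (edgeR adjusted p = 0.675, 0.741 and 0.893).

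The ratio of the strands was tested directly with limma on log2(3p + 0.5) minus log2(5p + 0.5) counts over the 89 hairpins with enough reads of both strands, of which 3 are member hairpins. Of the 89, 1.12% (1 hairpin) passed an adjusted p under 0.05 and 18% an unadjusted p under 0.05. None of the 3 member hairpins was called, and 1, miR-106b, had an unadjusted p under 0.05 by limma. For miR-106b the 3p/5p ratio was 0.540, 0.522, 0.564, 0.508 and 0.662 in WT replicates 1 to 5, and 0.586 at the lowest, 0.646 at the median and 0.848 at the highest in Mir483Pat-KO. WT replicate 5 stood above the other WT libraries and overlapped Mir483Pat-KO. The difference in log2 ratio was 0.26 (SE 0.11, 95% interval 0.025 to 0.50, limma adjusted p = 0.212).

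This ratio also differed between the animal-number ranges. In the lower range, looked at alone after the data were seen, it averaged 0.533 ± 0.024 in WT (n = 4) and 0.620 ± 0.038 in Mir483Pat-KO (n = 4). In the upper range the single WT library was at 0.662 and the 3 Mir483Pat-KO libraries ran from 0.646 to 0.848. The log2 difference was 0.22 in the lower range alone (limma adjusted p = 0.304) and 0.20 with the range as a factor (adjusted p = 0.244). With the library index number as a covariate it turned to -0.046 (SE 0.19, limma adjusted p = 0.961), and index and genotype cannot be told apart in this design.

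The miR-18a hairpin had a difference of nearly the same size, and the hairpins were not tested against each other. Its 3p/5p ratio was 0.198, 0.160, 0.199, 0.185 and 0.214 in WT replicates 1 to 5, and 0.174 at the lowest, 0.240 at the median and 0.260 at the highest in Mir483Pat-KO. The groups overlapped, but 5 of 7 Mir483Pat-KO libraries were above the highest WT library, against 2 of 7 for miR-106b. The difference in log2 ratio was 0.25 (SE 0.12, 95% interval -0.00061 to 0.51, limma unadjusted p = 0.0505 and adjusted p = 0.249). It was 0.31 in the lower animal-number range alone (limma adjusted p = 0.335) and 0.25 with the range as a factor (limma adjusted p = 0.332). With the library index number as a covariate it was 0.37 (SE 0.23, limma adjusted p = 0.871). Under that covariate miR-18a-5p itself went from -0.039 to -0.38 (SE 0.16), and miR-18a-3p from 0.22 to just below 0. Index and genotype cannot be told apart, so the sign of the ratio in that fit decides nothing. For the miR-17 hairpin the 3p/5p ratio was 0.017 ± 0.0032 and 0.017 ± 0.0061 (log2 difference -0.0052, SE 0.24, limma adjusted p = 0.983).

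**Figure D5:**
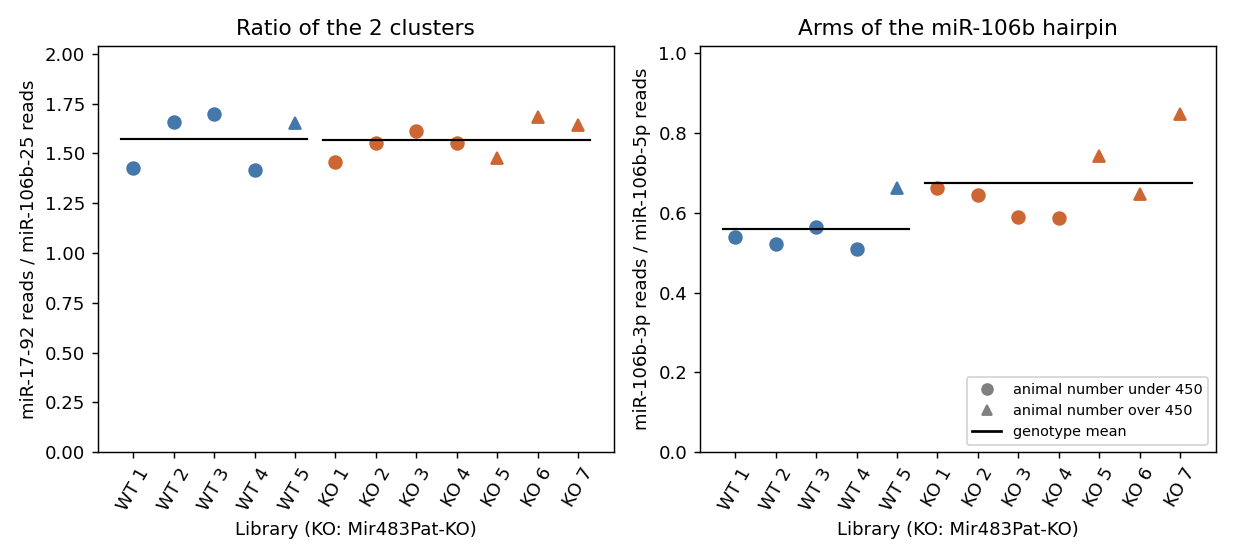
Left, reads of the miR-17-92 cluster over reads of the miR-106b-25 cluster, and right, miR-106b-3p reads over miR-106b-5p reads, in each library (linear axes from 0; WT blue, Mir483Pat-KO orange (KO); circles, animal numbers under 450; triangles, over 450; lines, genotype means). The cluster ratio averages 1.57 in both genotypes, and the strand ratio of WT replicate 5 (0.662) lies among the Mir483Pat-KO values.

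The miRs whose levels ran most nearly in proportion to each cluster were found by a proportionality measure, 1 minus the variance of the log2 ratio divided by the sum of the variances, over the 12 libraries and 213 miRs whose log2 CPM averaged 6 or more. Its highest value, 1, means a constant ratio. For the summed miR-17-92 cluster these were miR-369-3p (0.817), miR-323-3p (0.681) and miR-300-3p (0.663). For the summed miR-106b-25 cluster they were miR-425-5p (0.789), miR-127-3p (0.654) and miR-142a-5p (0.614). The clusters themselves reached 0.338 with each other. That value cannot be weighed against the 6 above, since those were picked as the highest among 213 miRs. Of the 6 names, 3 depended on the scaling. When libraries were scaled by their totals alone, miR-300-3p gave way to miR-485-3p (0.718) for the miR-17-92 cluster, and miR-127-3p and miR-142a-5p gave way to miR-323-3p (0.404) and miR-301a-3p (0.402) for the miR-106b-25 cluster. The values describe 12 libraries that share their scaling, and they carry no test.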

How the data were processed

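RNA from the livers of 5 WT and 7 Mir483Pat-KO E18.5 female fetuses was made into TruSeq small RNA libraries, which were sequenced as paired-end reads on a NovaSeq6000. Alignment and counting were done by the authors with miRge 3.0, and the deposited values are whole-number counts per mature miR, neither normalized nor pooled. The miR reference and adapter trimming are not given in the sources used here. Groups and replicate numbers came from the sample labels.

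miRs were kept by edgeR's filterByExpr (minimum count 10, minimum total 15), scaled by TMM, and compared between genotypes, without covariates, by the quasi-likelihood F-test of edgeR 4.0.16 (legacy = TRUE; R 4.3.3). Benjamini-Hochberg adjustment was over all 388 miRs. Strand ratios (pseudocount 0.5, mean count of each strand at least 10) were compared with limma 3.58.1. DESeq2 1.42.0, limma-voom, other scalings and filters, a replicate block, the library index, the animal-number range and leaving out each library were the alternatives. The code was tested on simulated counts. Shares, sums and ratios over members, and proportionality, carry no test. The WT fetuses were littermates of the Mir483Pat-KO fetuses, but which fetuses share a litter is not given in the sources used here, so p-values measure the spread between fetuses and leave litter out of account.

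A level of 3 counts is 2.48 to 4.55 CPM in these libraries, before scaling, and since PCR copies reads, such floors cover counting error only. The smallest count above 0 is 2. Named miRs were the members, the opposite strands of their hairpins, the miR-106a-363 arms, miRs of the same seeds, the 3 most proportional to each cluster, miR-483 and the markers. The members, lists and tests were chosen with earlier results of these data known. Positions are from GENCODE M21 (GRCm38) and sequences from RefSeq (GRCm38.p6). Figures were drawn with matplotlib 3.10.9. mRNA libraries were not analysed here.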

Additional observations from a re-analysis of the deposited data

Results flagged for a closer look

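Within each genotype, 19 measures of the members, their strands and the clusters were examined for a library standing apart (38 groups of 5 or 7), and 3 were found by Dixon's 95% criterion, which chance alone meets in about 1 of 20 groups. miR-17-3p was at 24.6 CPM in WT replicate 4, where the other WT libraries lay between 18.04 and 19.57 CPM, and these levels rest on 14 to 23 reads. The 3p/5p ratio of the miR-17 hairpin, which shares those reads, was -5.45 on the log2 scale in the same library against -6.04 to -5.89 in the other WT libraries. miR-19a-3p was at 299 CPM in Mir483Pat-KO replicate 1, where the other 6 Mir483Pat-KO libraries lay between 335 and 362 CPM.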

How the results depend on the processing

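The count of members called was 0 in every alternative run. Some members had an unadjusted p under 0.05 by edgeR in single settings. These were miR-19b-3p with library size alone and without WT replicate 1 or Mir483Pat-KO replicate 2, and miR-18a-5p with the index as a covariate. The others were miR-92a-3p without Mir483Pat-KO replicate 1 and miR-93-5p without WT replicate 1. The count of miRs called among all tested, 8, was 14 with library size alone, 26 with DESeq2, 5 with the animal-number range as a factor, 3 with the library index number as a covariate, 2 in the lower animal-number range alone (added after the data were seen) and 3 to 12 when single libraries were left out. The replicate numbers did not pair the fetuses (correlations of same-numbered deviations from -0.24 to 0.23), and with the number as a replicate block 3 miRs and 0 hairpins were called.

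Signs changed for values near 0 and, with the index as a covariate, for some larger ones. miR-17-3p, at 0.0046, was -0.011 with RLE scaling, -0.062 with library size alone, -0.022 without a filter, -0.0095 with DESeq2, -0.0065 with limma-voom, -0.082 with the replicate block, -0.026 with the animal-number range, -0.041 with the index and -0.12 in the lower range, and -0.14 to 0.085 with single libraries left out. miR-20a-5p was 0.0055 with upper-quartile scaling (-0.043 to 0.035 with single libraries left out). With the index as a covariate, miR-17-5p was 0.015 and miR-92a-1-5p -0.051. In the same fit miR-92a-3p went from 0.10 to -0.10, miR-106b-3p from 0.25 to -0.049 and miR-18a-3p from 0.22 to -0.015. The strand ratio of miR-106b went from 0.26 to -0.046. miR-18a-5p kept its sign but went from -0.039 to -0.38 (SE 0.16). miR-92a-1-5p was also -0.018 with library size alone and -0.0055 in the lower range (-0.014 to 0.074 with single libraries left out), and miR-106b-5p was -0.071 to 0.021 with single libraries left out. The strand ratio of miR-17 was 0.030 with a pseudocount of 2 and -0.13 to 0.14 with single libraries left out, and the hairpins called, 1, were 0 in the lower range and 0 to 4 with single libraries left out. For strand ratios, the fits with the index or the animal-number range were added after the data were seen.

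As a mean log2 CPM of its members the miR-17-92 cluster differed by -0.042. The mean log2 ratio of the clusters, 0.65, was -1.77 as a mean over members, -1.20 without miR-19b-3p and miR-92a-3p, and -0.37 without miR-92a-3p and miR-25-3p, with a genotype difference of -0.14 in the last (added after the data were seen). Without miR-19b-3p and miR-92a-3p, which a second locus also encodes, the miR-17-92 cluster supplied 0% of the miR-25/92 family by construction. With opposite strands added, the shares of miR-18a, miR-106b and miR-93 were 2.98%, 13.2% and 53.6%. The proportionality of miR-425-5p to the miR-106b-25 cluster was 0.577 with library size alone. Leaving out entries shared by several miRs was not run, since no member is in one.

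Depth limits miR-17-3p, miR-93-3p, miR-25-5p and the miR-106a-363 arms, with about 20 CPM or less, and 1 WT library in the upper animal-number range leaves no test of genotype there.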
